A study of Mus musculus with 2 samples.

Results

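Immunoglobulin heavy variable segments (Ighv) are the germline V segments of the mouse heavy chain locus. All loci annotated as IG_V_gene whose name begins with Ighv were taken, which gave 113 segments of the 55246 loci in the deposited table. They lie on chromosome 12 between 113578504 and 116000461 (GRCm38), all on the minus strand, and span 2.42 Mb. The reads come from RNA sequencing of cells labelled as regulatory T cells (Tregs) from the colon lamina propria of female mice, with 1 library of genotype WT and 1 of genotype Exon2KO. Exon2KO is the series' Foxp3∆2 genotype, in which Foxp3, the transcription factor that defines Treg cells, lacks exon 2. Mouse strain and with it the heavy chain haplotype, age, the sorting scheme and whether mice were pooled are not given in the sources used here. With 1 library per genotype there is no replicate, so no difference below was set against a spread between samples and no p-value is given. All intervals are 95% intervals of counting error only, since the reads carry no molecular identifiers and copies of 1 molecule cannot be told from separate ones.

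B lymphocytes build a heavy chain gene by joining 1 V, 1 D and 1 J segment, and the joined exon is then spliced to a constant gene such as Igha, which encodes the heavy chain of IgA. Each B cell clone carries 1 productive V segment, so the mixture of V reads in a tissue follows the clones present and the amount of immunoglobulin RNA per cell. Plasma cells, the secreting descendants of B cells, hold very large amounts of this RNA, and those of the gut lamina propria mostly make IgA. T cells rearrange T cell receptor loci and are not known for productive heavy chain V(D)J joining. The number after Ighv names the subgroup, a family of segments of similar sequence, and the following number gives the order along the locus for most segments.

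The germline sequence at the 3′ end of the V exon is shown for 2 sets of segments, read from the GENCODE M21 transcripts of GRCm38. The first set holds the 3 segments with the highest mean share of Ighv reads. Each line gives the last 300 bases of the V exon, 5′ to 3′ on the minus strand, and capitals mark the end from the conserved cysteine codon, where CDR3, the most variable loop of the antibody, begins. The windows are chr12:114288152-114288451, chr12:115920279-115920578 and chr12:115507545-115507844 in that order.
Ighv3-6: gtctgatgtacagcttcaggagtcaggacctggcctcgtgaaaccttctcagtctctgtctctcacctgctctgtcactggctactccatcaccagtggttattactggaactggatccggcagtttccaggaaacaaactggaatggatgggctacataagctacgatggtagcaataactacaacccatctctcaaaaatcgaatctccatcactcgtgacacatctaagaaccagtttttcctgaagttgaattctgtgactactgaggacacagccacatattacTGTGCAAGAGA
Ighv1-81: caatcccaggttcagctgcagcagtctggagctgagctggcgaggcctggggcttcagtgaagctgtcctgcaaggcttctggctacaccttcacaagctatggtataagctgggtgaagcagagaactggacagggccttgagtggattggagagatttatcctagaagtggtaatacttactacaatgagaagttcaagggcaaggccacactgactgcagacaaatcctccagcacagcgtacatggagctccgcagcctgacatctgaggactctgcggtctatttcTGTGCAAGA
Ighv1-64: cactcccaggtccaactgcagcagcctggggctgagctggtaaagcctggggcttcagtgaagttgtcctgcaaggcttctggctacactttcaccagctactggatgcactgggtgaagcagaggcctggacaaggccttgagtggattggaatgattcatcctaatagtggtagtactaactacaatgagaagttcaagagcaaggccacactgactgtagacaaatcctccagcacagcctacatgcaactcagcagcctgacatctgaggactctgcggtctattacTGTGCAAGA

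The second set holds the 4 segments that had the most WT reads among those with at least 100 reads in WT and at most 10 in Exon2KO. Their windows are chr12:113736111-113736410, chr12:113948282-113948581, chr12:113838526-113838825 and chr12:114357759-114358058, with the same marking.
Ighv5-9-1: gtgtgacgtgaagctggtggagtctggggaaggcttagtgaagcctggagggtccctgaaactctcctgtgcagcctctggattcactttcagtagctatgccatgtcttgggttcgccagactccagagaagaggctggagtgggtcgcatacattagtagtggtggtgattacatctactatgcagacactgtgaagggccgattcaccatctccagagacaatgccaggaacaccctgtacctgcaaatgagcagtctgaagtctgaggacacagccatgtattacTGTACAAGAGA
Ighv4-1: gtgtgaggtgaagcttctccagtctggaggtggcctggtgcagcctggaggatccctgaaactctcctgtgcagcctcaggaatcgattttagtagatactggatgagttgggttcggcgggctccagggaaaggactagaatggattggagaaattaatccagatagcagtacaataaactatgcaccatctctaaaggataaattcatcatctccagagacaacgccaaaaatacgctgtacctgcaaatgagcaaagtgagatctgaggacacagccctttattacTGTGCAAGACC
Ighv5-16: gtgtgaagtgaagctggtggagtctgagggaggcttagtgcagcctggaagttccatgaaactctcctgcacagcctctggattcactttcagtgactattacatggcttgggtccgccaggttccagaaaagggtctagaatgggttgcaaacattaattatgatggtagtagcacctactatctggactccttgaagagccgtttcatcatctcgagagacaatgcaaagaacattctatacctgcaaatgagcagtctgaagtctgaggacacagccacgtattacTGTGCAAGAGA
Ighv13-2: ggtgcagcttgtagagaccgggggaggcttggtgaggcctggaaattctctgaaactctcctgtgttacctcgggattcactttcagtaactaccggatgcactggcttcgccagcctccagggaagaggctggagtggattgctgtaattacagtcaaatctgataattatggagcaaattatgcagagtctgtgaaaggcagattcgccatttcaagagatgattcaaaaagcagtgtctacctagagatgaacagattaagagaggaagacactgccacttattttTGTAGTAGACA

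Gene-assigned reads numbered 16281133 in WT and 15412425 in Exon2KO. Foxp3 itself had 6991 reads in WT and 20946 in Exon2KO, and a count per gene does not resolve exon 2, so it does not check the deletion. The Ighv segments together had 45207 reads in WT and 36632 in Exon2KO. By Wilson intervals this was 0.278% of all WT reads (0.275 to 0.28) and 0.238% of those of Exon2KO (0.235 to 0.24). After TMM scaling, a normalisation of library size, the summed level was 2880 CPM for WT and 2290 CPM for Exon2KO. The log2 ratio of Exon2KO over WT was -0.33 (-0.35 to -0.31). In bulk RNA, fewer cells of a type and less RNA per cell cannot be told apart.

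Ighv3-6 (ENSMUSG00000076672) was the leading segment of both libraries, with 3234 reads in WT and 2654 in Exon2KO. Its share of Ighv reads was 7.15% in WT (6.92 to 7.39) and 7.25% in Exon2KO (6.98 to 7.52), so the Wilson intervals overlapped. Per length, its deposited FPKM (reads per length of the gene and per library depth) was 586 in WT and 477 in Exon2KO. Ighv1-81 (ENSMUSG00000094689) came next in both, with 2191 and 2019 reads, 4.85% (4.65 to 5.05) and 5.51% (5.28 to 5.75). Below these, the order differed. Of the 5 segments with the most reads in each library, 2 were shared, of the first 10, 5, and of the first 20, 13.

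Among the other 8 segments with the highest mean share, 2 had overlapping intervals, 4 had a higher share in Exon2KO and 2 a lower one. Ighv1-64 had 1773 and 1358 reads, and its share was 3.92% (3.75 to 4.1) and 3.71% (3.52 to 3.91). Ighv1-80 had 1307 and 1100 reads, 2.89% (2.74 to 3.05) and 3.0% (2.83 to 3.18), and the intervals of both segments overlapped between libraries. Higher shares in Exon2KO were found for Ighv1-26, Ighv1-53, Ighv1-39 and Ighv10-1. Ighv1-26 ranked 6 in both, with 1510 and 1383 reads and shares of 3.34% (3.18 to 3.51) and 3.78% (3.59 to 3.98). Ighv1-53 had 1275 reads in WT and 1528 in Exon2KO, and its share was 2.82% (2.67 to 2.98) and 4.17% (3.97 to 4.38), rank 12 and rank 3. Ighv1-39 had 1218 and 1462 reads, 2.69% (2.55 to 2.85) and 3.99% (3.8 to 4.2). Ighv10-1 had 896 and 1450 reads and took rank 17 in WT and rank 5 in Exon2KO, with 1.98% (1.86 to 2.11) and 3.96% (3.76 to 4.16). Lower shares in Exon2KO were found for the remaining pair. Ighv5-17 was at rank 3 in WT and rank 13 in Exon2KO, with 1836 reads in WT and 920 in Exon2KO, 4.06% (3.88 to 4.25) and 2.51% (2.36 to 2.68). Ighv1-55 had 1655 and 930 reads, 3.66% (3.49 to 3.84) and 2.54% (2.38 to 2.7).

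**Figure D1:**
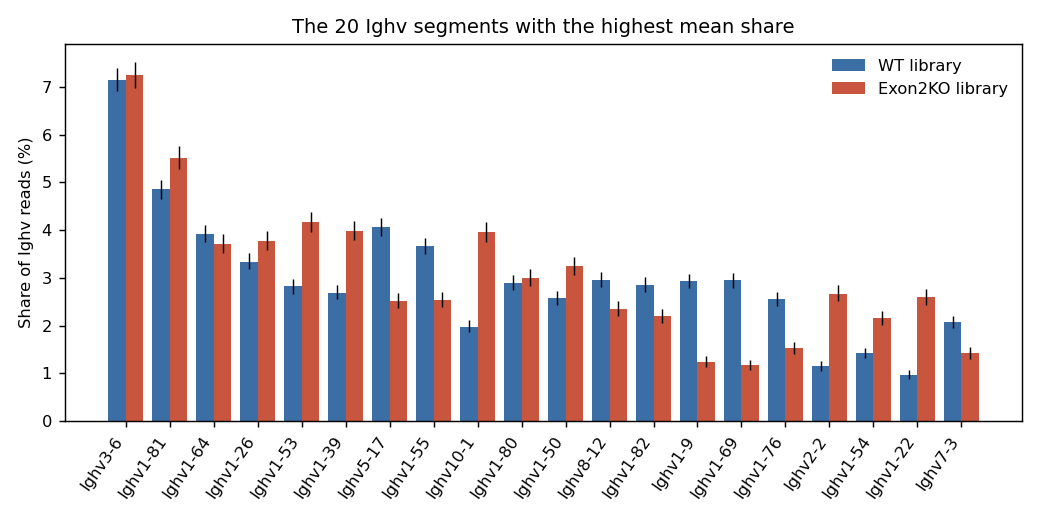
Share of Ighv reads (percent, y axis) of the 20 segments with the highest mean share, with WT and Exon2KO bars side by side and 95% Wilson intervals as error bars (counting error only, 1 library per genotype). Ighv3-6 stands highest in both libraries at 7.15% and 7.25%, while Ighv10-1 is at 1.98% in WT and 3.96% in Exon2KO.

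At the level of subgroups the largest family stayed the largest. Ighv1, the family also known as J558, holds 53 of the 113 segments (46.9%) and had 57.9% of the Ighv reads in WT (57.4 to 58.3) and 60.0% in Exon2KO (59.5 to 60.5). Ighv3 holds 6 segments (5.31%) and had 9.81% (9.54 to 10.1) and 11.1% (10.8 to 11.4), and Ighv3-6 alone made 72.9% and 65.2% of that. Ighv5 holds 10 segments (8.85%) and had 10.8% (10.5 to 11.1) in WT and 7.61% (7.34 to 7.88) in Exon2KO. By reads, Ighv5 was ahead of Ighv3 in WT and behind it in Exon2KO. With reads divided by gene length, Ighv3 led in both, with 10.2% against 9.9% in WT and 11.5% against 7.17% in Exon2KO.

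Among the other families with more than 1% of the reads, shares were higher in Exon2KO for 3, lower for 3, and overlapped for 1. Ighv2 (9 segments) had 3.36% in WT (3.2 to 3.53) and 4.73% in Exon2KO (4.52 to 4.95), and its leading member Ighv2-2 had 521 and 977 reads. Ighv9 (4 segments) had 2.77% (2.62 to 2.93) and 3.20% (3.02 to 3.38), with Ighv9-3 at 703 reads in each library. Ighv10 (2 segments) had 2.15% (2.02 to 2.29) and 3.96% (3.76 to 4.16), a ratio of 1.84, although only Ighv10-1 carried it in Exon2KO: Ighv10-3 had 77 reads in WT and 0 in Exon2KO. The families with lower shares were Ighv6, Ighv7 and Ighv14. Ighv6 (5 segments) had 2.77% (2.62 to 2.93) and 1.73% (1.6 to 1.87), and its leading member Ighv6-6 had 769 and 415 reads. Ighv7 (4 segments) had 2.35% (2.22 to 2.5) and 1.45% (1.33 to 1.58), and Ighv7-3 made 88.0% and 98.1% of it, with 935 and 522 reads. Ighv14 (4 segments) had 3.17% (3.01 to 3.34) and 2.15% (2.0 to 2.3), with Ighv14-2 at 805 and 507 reads. Ighv8 (9 segments) had 3.74% (3.57 to 3.92) and 3.83% (3.64 to 4.03), but within it Ighv8-12 made 79.2% of the reads in WT and 61.4% in Exon2KO, with 1339 and 862 reads.

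The families of 1 or 2 segments with few reads differed most in relative terms. Ighv4-1, the only member of Ighv4, had 322 reads in WT and 2 in Exon2KO, and Ighv13-2, the only member of Ighv13, had 179 and 0. Ighv15-2 had 18 and 0 reads. Ighv12-3 went the other way, with 12 reads in WT and 104 in Exon2KO, 0.0265% (0.0152 to 0.0464) and 0.284% (0.234 to 0.344) of Ighv reads, a ratio of 10.7. Ighv11-2 had 6 and 1 reads, and Ighv11-1 and Ighv16-1 had 0 in both. Ighv11 and Ighv12 are known for antibodies of B-1 cells, a self-renewing B cell lineage, that bind phosphatidylcholine. Counted over all subgroups, the effective number, the exponential of the Shannon entropy (how many equally used families would give the same spread), was 4.78 in WT and 4.42 in Exon2KO. The share of Ighv reads that would have to change family to make the libraries equal was 7.32%.

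**Figure D2:**
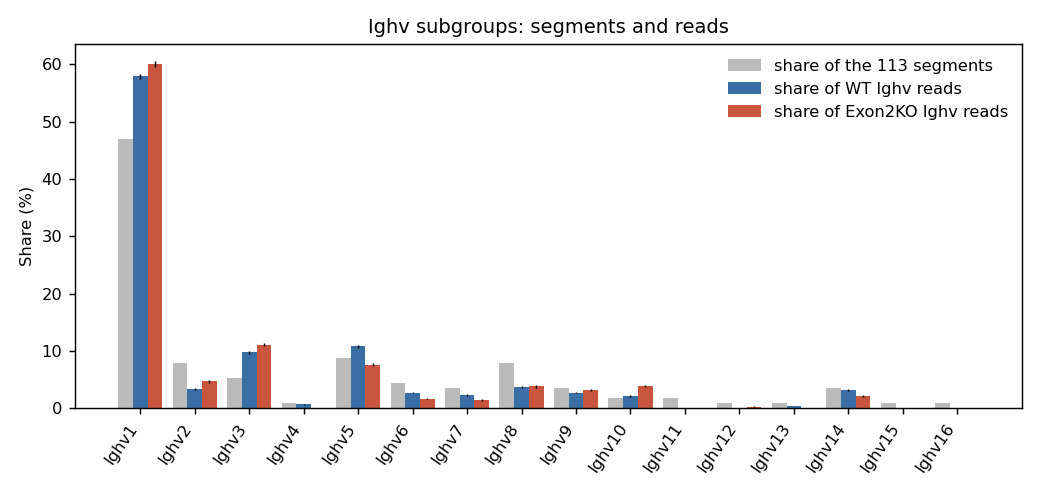
Share of Ighv reads (percent) of each Ighv subgroup in the WT and Exon2KO libraries, with 95% Wilson intervals (counting error only), beside its share of the 113 segments (grey). Ighv1 holds 57.9% and 60.0%, Ighv5 is lower in Exon2KO (10.8% and 7.61%) and Ighv10 is higher (2.15% and 3.96%).

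Of the 113 segments, 17 had 0 reads in both libraries, 8 had 1 to 9 reads over both, and 88 had at least 10 and were compared one by one. The 17 were Ighv1-16, Ighv1-24, Ighv1-43, Ighv1-62-1, Ighv2-4, Ighv2-7, Ighv5-12-4, Ighv5-15, Ighv6-7, Ighv7-2, Ighv7-4, Ighv8-4, Ighv8-9, Ighv8-11, Ighv8-13, Ighv11-1 and Ighv16-1. They came from 8 subgroups, with 4 each from Ighv1 and Ighv8. The 8 with 1 to 9 reads were Ighv1-67, Ighv2-5, Ighv2-6-8, Ighv6-4, Ighv6-5, Ighv8-6, Ighv9-4 and Ighv11-2. A count of 0 allows up to 0.00664% of Ighv reads in WT and 0.00819% in Exon2KO (3 reads). A segment was counted as lower or higher when its TMM-scaled log2 ratio with a prior count of 2 reached 1 (2-fold). By this rule 27 of the 88 segments were lower in Exon2KO (30.7%), against 8.14% of all genes with at least 10 reads, and 8 were higher (9.09%), against 9.38%. The remaining 53 lay within 2-fold, with 6 to 3234 reads in WT and 6 to 2654 in Exon2KO, and held 73.6% and 84.2% of the Ighv reads. With a minimum of 100 reads, 19 of 74 segments were lower (25.7%, against 4.44% of all such genes) and 7 were higher (9.46%, against 3.79%). The median log2 ratio over the 88 segments was -0.29 (interquartile range -1.15 to 0.24), against 0.0035 (-0.33 to 0.35) over all genes. It stays at -0.29 with the segments of 0 reads placed at their bounds, since these lie below it on either scale.

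Relative to the Ighv total, rather than to all genes, the split was more even. When each segment's share of Ighv reads was compared, 20 of the 88 segments were lower in Exon2KO and 13 higher. Of the segments past 2-fold, 60.6% were then lower, against 77.1% with TMM scaling. The share of all genes was not computed with this denominator. With TMM scaling, differences were spread over the read range. Among segments with 1000 or more reads over both libraries, 4 of 31 were lower and 1 higher, while all genes of that depth were lower in 3.14% and higher in 1.58%. Of those with 500 to 999 reads, 6 of 16 were lower and 1 higher (all genes 3.45% and 2.86%). Those with 100 to 499 reads gave 9 of 27 lower and 5 higher (6.41% and 6.77%). In the band of 10 to 99 reads, 8 of 14 were lower and 1 higher (14.4% and 18.8%).

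The 27 lower segments together had 10998 reads in WT (24.3% of Ighv reads) and 3516 in Exon2KO (9.6%). Their WT counts ranged from 11 to 1836. Among those with at least 100 reads in WT, 7 had at most 10 in Exon2KO: Ighv5-9-1, Ighv4-1, Ighv5-16, Ighv13-2, Ighv1-61, Ighv7-1 and Ighv1-37. They made 1804 reads in WT (3.99% of Ighv reads) and 34 in Exon2KO (0.0928%). The 7 were 10.4% of the 67 segments with at least 100 WT reads, while 24 of 9176 genes (0.262%, these segments included) met the same limits. In the opposite direction they were met by 0 of 60 segments, against 0.238% of all genes. This set, like the other counts of segments near 0, was defined after the values were seen and is a description.

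Ighv5-9-1 had 606 reads in WT, 1.34% of Ighv reads (1.24 to 1.45) and rank 28, and 1 read in Exon2KO. With so few reads in 1 library only a limit is given, and the one nearer to 0 was -6.79 for the log2 ratio. For Ighv4-1, with 322 reads in WT and 2 in Exon2KO, this limit was -5.49, and for Ighv1-37, with 116 and 1, it was -4.38. Ighv13-2 had 179 reads in WT and 0 in Exon2KO, which is at least 60.8-fold lower against a floor of 3 reads in the library. That floor leaves out the counting error of the WT reads, and the interval limit of the log2 ratio nearer to 0 was -5.61. Ighv5-16 had 302 and 10 reads, and its log2 ratio was -4.69 (-6.02 to -4.04). Ighv1-61 had 151 and 10 reads and a log2 ratio of -3.70 (-5.03 to -3.02). Ighv7-1, the segment of the classical antibodies to phosphorylcholine, had 128 and 10 reads, -3.46 (-4.80 to -2.78).

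Other members of the lower group covered a wide range of counts. Ighv5-9 had 779 reads in WT and 98 in Exon2KO (log2 ratio -2.99, -3.34 to -2.71), and Ighv14-4 had 331 and 38 (-3.08, -3.67 to -2.66). Ighv1-69 ranked 8 in WT with 1332 reads and 30 in Exon2KO with 431 (-1.65, -1.81 to -1.50). Ighv1-9 ranked 9 and 29, with 1326 and 456 reads (-1.56, -1.72 to -1.41). By family, Ighv1 had 11 of its 48 segments with at least 10 reads in this group and Ighv5 had 5 of 8, where all genes gave 8.14% lower. The other subgroups had at most 1 each, but also few segments to compare. It was 1 of 1 in Ighv4, Ighv13 and Ighv15, and 1 of 2 in Ighv6, Ighv7 and Ighv10. In Ighv2, Ighv3, Ighv8, Ighv9 and Ighv14 it was 1 of 5, 6, 4, 3 and 4, and Ighv12 had 0 of 1. Ighv5-9-1, Ighv5-9, Ighv5-16, Ighv5-17 and Ighv5-2 are the 5 of Ighv5. Ighv5-2, the segment known as VH81X that is used early in B cell development, had 11 reads in WT and 1 in Exon2KO, with a limit nearer to 0 of -0.70. Ighv5-9, Ighv14-4, Ighv1-69, Ighv1-9, Ighv5-2 and Ighv7-1 were named after their values were seen.

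Reads in WT with 0 in Exon2KO were found for 6 segments with at least 10 WT reads: Ighv13-2 (179 reads), Ighv10-3 (77), Ighv1-36 (45), Ighv1-49 (25), Ighv15-2 (18) and Ighv1-56 (16). Against the floor of 3 reads, Ighv10-3 was at least 26.1-fold lower, Ighv1-36 at least 15.3-fold and Ighv1-49 at least 8.49-fold. With the counting error of both libraries, their log2 limits nearer to 0 were -4.38, -3.58 and -2.68. These 6 were 7.06% of the 85 segments with at least 10 WT reads, against 0.693% of all such genes. In the opposite direction, a segment with 0 reads in WT had at most 1 read in Exon2KO, so 0 of 74 met the limits, against 0.929% of all genes. The 8 segments with 1 to 9 reads over both libraries held 20 reads in WT and 2 in Exon2KO.

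The 8 higher segments had 908 reads in WT (2.01% of Ighv reads) and 2284 in Exon2KO (6.23%). All had reads in both libraries. Ighv12-3 had the highest log2 ratio, 2.90 (2.22 to 4.09), from 12 and 104 reads. For Ighv1-75, with 76 WT reads and 249 Exon2KO reads, it was 1.66 (1.31 to 2.08), and Ighv1-71 had 32 and 107, also 1.66 (1.13 to 2.33). Ighv9-2 had 85 and 234 reads (1.41, 1.07 to 1.81), and Ighv5-12 had 158 and 397 (1.29, 1.03 to 1.58). Ighv8-5 had 100 and 230 reads (1.16, 0.83 to 1.53). Ighv5 held members on both sides, with 5 lower and 1 higher, and 4 of these 5 were lower under every scaling tried, Ighv5-17 being the exception. In Ighv9, beside the higher Ighv9-2, Ighv9-1 had 464 and 234 reads and a log2 ratio of -1.01 with TMM, which was -0.90 with library totals, -0.99 with DESeq2 size factors and -0.68 with Ighv shares. The 2 higher segments outside the naming rule were Ighv1-22, with 441 and 952 reads, and Ighv1-62-2, with 4 and 11 reads and an interval of the log2 ratio from -0.32 to 3.54 that includes 0.

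**Figure D3:**
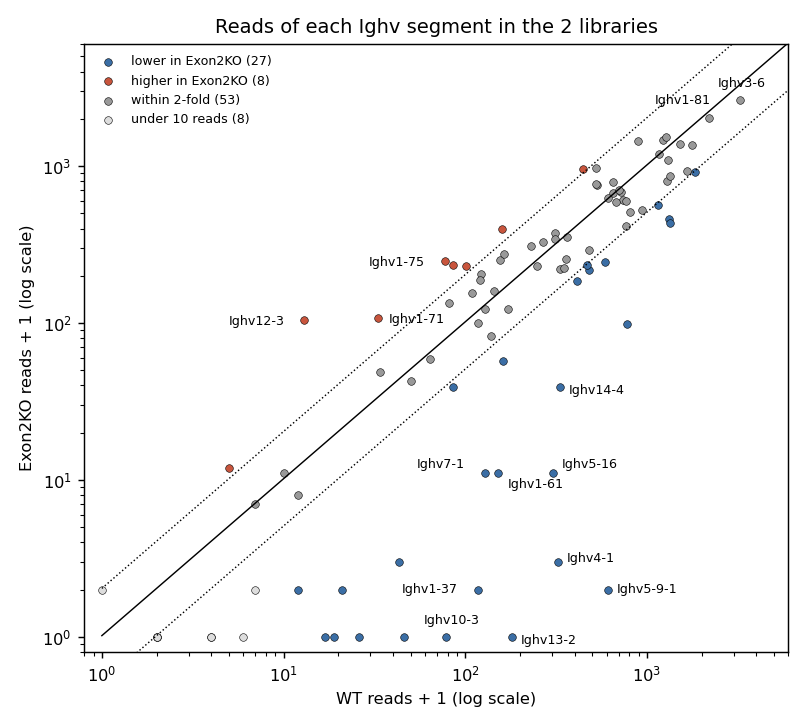
Reads of each Ighv segment plus 1 in WT (x axis) and Exon2KO (y axis), both log scales, 1 point per segment with at least 1 read; the solid line marks equal TMM-scaled levels and the dotted lines 2-fold. The 27 lower segments (blue) reach down to 0 reads in Exon2KO, whereas the 8 higher segments (red) have at least 4 reads in WT.

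Usage was spread over many segments in both libraries, and slightly less so in Exon2KO. Reads were found for 95 segments in WT and 84 in Exon2KO. Thinned to the 36632 Ighv reads of Exon2KO, the WT library would show 94.4 segments on average, against the 84 of Exon2KO. The Shannon entropy was 5.68 bits in WT and 5.57 bits in Exon2KO. This is an effective number of 51.4 equally used segments (51.0 to 51.8) and 47.6 (47.2 to 48.0). The inverse Simpson index, which weights the leading segments more, was 38.8 (38.3 to 39.3) and 36.4 (35.9 to 36.9).

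The top of the distribution was alike. The first segment made 7.15% of Ighv reads in WT and 7.25% in Exon2KO, the first 5 made 23.6% and 24.9%, the first 10 made 38.7% and 41.3%, and the first 20 made 61.5% and 63.6%. A total of 15 segments in WT and 14 in Exon2KO held 50% of the reads, and 46 and 44 held 90%. The dissimilarity, the share of reads that would have to move to other segments to make the libraries equal, was 19.8% (19.2 to 20.5). Across the 88 segments Spearman's rho between the read counts of the libraries was 0.825, and across the 72 with at least 10 reads in each it was 0.814. The points are segments of 1 locus in 1 library pair, so these values are descriptions.

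**Figure D4:**
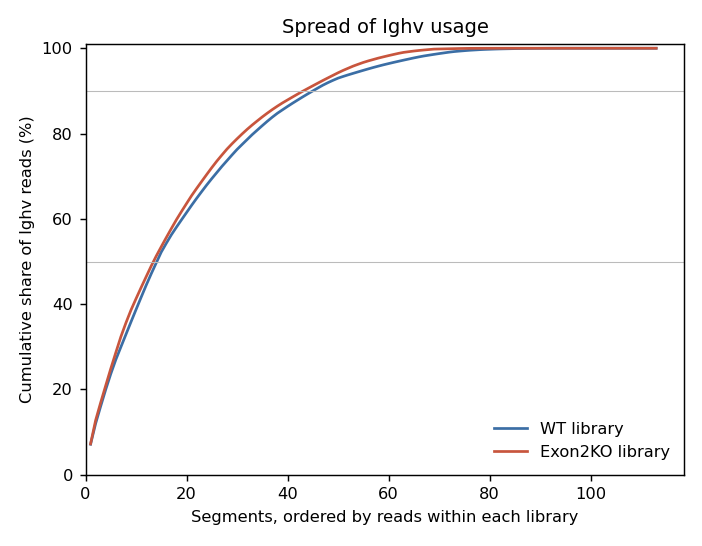
Cumulative share of Ighv reads (percent, y axis) against the number of segments taken from the most to the least used (x axis), 1 line per library. The lines lie close together: 50% is reached with 15 segments in WT and 14 in Exon2KO, and 90% with 46 and 44.

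The segments were then ordered by distance from Ighj1, a J segment on the constant-gene side of the V segments, and divided into 4 groups of 28 or 29 neighbouring segments. The group nearest to Ighj1 (149 to 639 kb) had 18.8% of Ighv reads in WT (18.4 to 19.1) and 16.5% in Exon2KO (16.1 to 16.9). The next (664 to 1180 kb) had 23.2% (22.8 to 23.5) and 22.0% (21.6 to 22.5). The one after that (1190 to 1810 kb) had 26.3% (25.9 to 26.7) and 32.7% (32.2 to 33.2), and was the only group with a higher share in Exon2KO. The farthest (1860 to 2570 kb) had 31.8% (31.4 to 32.2) and 28.8% (28.3 to 29.2). In both libraries each of the 2 farther groups, which hold only Ighv1 and Ighv8 segments, had more reads than either of the nearer ones.

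Lower segments were found in all 4 groups. From nearest to farthest they were 8 of 19 compared, 9 of 23, 5 of 23 and 5 of 23, with 1, 2, 2 and 3 higher, where all genes gave 8.14% lower and 9.38% higher. The median log2 ratios in the same order were -0.69, -0.55, -0.02 and -0.39. Of the 7 segments with at least 100 WT reads and at most 10 in Exon2KO, 4 lay in the nearest group and 1 in each of the others. Position and subgroup go together along this locus and cannot be told apart here.

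**Figure D5:**
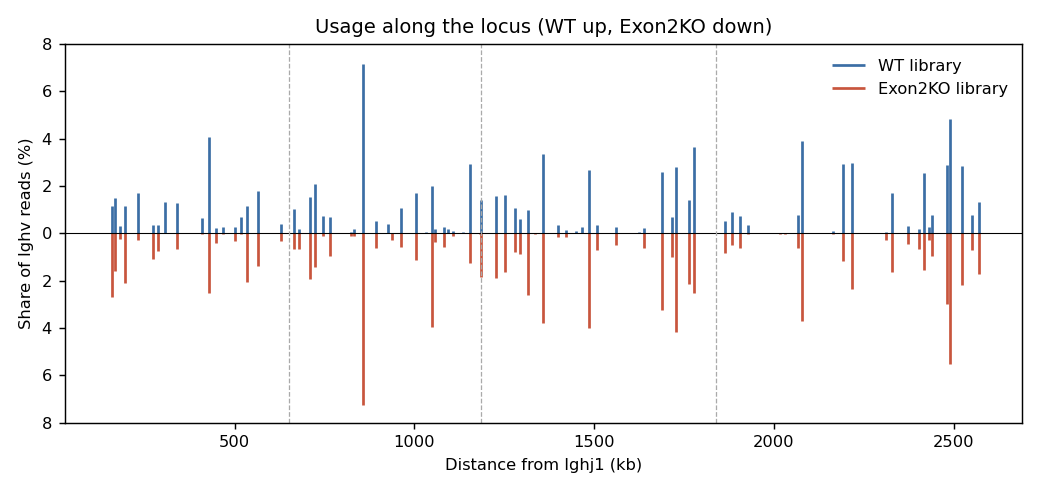
Share of Ighv reads (percent, y axis) of each segment against its distance from Ighj1 in kb (x axis), with WT drawn upward and Exon2KO downward and dashed lines between the 4 position groups. The group from 1190 to 1810 kb holds 26.3% in WT and 32.7% in Exon2KO, and the group within 639 kb 18.8% and 16.5%.

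Germline V segments resemble each other, so a read can match more than 1, and how reads matching several segments were counted is not given in the sources used here. The V exon of each of the 113 segments was compared with those of the others, and the 70 Ighv pseudogenes were left out of this comparison. Identity to the nearest neighbour had a median of 95.3% (range 73.7 to 100), and 18 of the 113 segments had a neighbour with at least 98% identity. Of these 18, 6 had 0 reads in both libraries. The median was 95.2% for the 17 segments with 0 reads and 95.3% for the 88 compared. The V exons of Ighv1-62-2 and Ighv1-71 were identical over 313 bases, so their counts are uncertain, and both were among the 8 higher segments. Ighv1-72, known as V186.2 in the response to the hapten nitrophenyl, was 99.0% identical to Ighv1-62-3. It had 768 reads in WT and 597 in Exon2KO, and Ighv1-62-3 had 9 and 10.

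The 7 segments with at least 100 WT reads and at most 10 in Exon2KO had a median identity to their nearest neighbour of 89.2% (76.5 to 98.7). Among the 113 segments, 5 of these 7 had no neighbour at 95% or above. Ighv4-1 was nearest to Ighv11-2 at 76.5%, Ighv13-2 to Ighv6-3 at 80.3%, and Ighv5-16 to Ighv5-12 at 86.6%. Ighv1-37 and Ighv1-61 each had a neighbour with 4 differences over 305 bases. Ighv1-20, the neighbour of Ighv1-37, had 268 reads in WT and 325 in Exon2KO. Ighv1-52, the neighbour of Ighv1-61, had 312 and 373. Both neighbours had somewhat more reads in Exon2KO, where Ighv1-37 and Ighv1-61 had 1 and 10.

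Ighv5-9-1, the segment with the largest loss of reads among the 7, differed from its neighbour Ighv5-6 at 17 of 307 aligned bases (94.5% identity). Ighv5-6 had 521 reads in WT and 773 in Exon2KO, against 606 and 1 for Ighv5-9-1. To show how far apart the pair is, 120 aligned bases are printed with their 10 differences in capitals, from chr12:113736209-113736328 and chr12:113625604-113625723, 5′ to 3′ on the minus strand.
Ighv5-9-1: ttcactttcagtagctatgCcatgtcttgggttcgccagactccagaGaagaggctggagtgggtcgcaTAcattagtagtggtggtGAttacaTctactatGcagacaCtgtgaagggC
Ighv5-6: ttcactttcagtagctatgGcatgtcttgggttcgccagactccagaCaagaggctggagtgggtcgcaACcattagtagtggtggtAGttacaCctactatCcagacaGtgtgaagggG

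The other parts of the heavy chain locus were read beside the segments. The 8 constant genes had 417268 reads in WT and 336897 in Exon2KO, 2.56% and 2.19% of all reads, and their summed level had the log2 ratio -0.34 (-0.34 to -0.33). The ratio of Ighv to constant reads overlapped between libraries, at 10.8 Ighv reads per 100 constant reads in WT (10.7 to 10.9) and 10.9 in Exon2KO (10.8 to 11.0). Igha made 98.0% of the heavy constant reads in WT (97.9 to 98.0) and 99.2% in Exon2KO (99.2 to 99.2). Ighm, the constant gene of IgM, made 1.09% (1.06 to 1.13) and 0.254% (0.238 to 0.272). Ighg2b and Ighg2c, constant genes of IgG, made 0.388% and 0.303% in WT and 0.152% and 0.15% in Exon2KO, while Ighg1 made 0.211% and 0.238%. The shares of Ighm, Ighg2b and Ighg2c were thus smaller in Exon2KO, and their part in the lower V segments was not tested.

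The 4 Ighj segments had 40 and 11 reads, the 17 Ighd segments 8 and 5, and the 70 Ighv pseudogenes 57 and 38 reads in all. Pseudogene V segments therefore had few reads beside the 45207 and 36632 of the IG_V_gene segments.

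Markers of the cells that make immunoglobulin were present in both libraries, beside those of Treg cells. Over all genes, as above, 8.14% were lower and 9.38% higher by the same rule. Of 12 plasma cell genes 1 was higher in Exon2KO past 2-fold and 0 were lower, and the median log2 ratio was -0.14. The summed level was 8820 CPM in WT and 8410 in Exon2KO, of which Jchain alone made 7650 and 7110. None of the 12 was at 0 in either library. Jchain, the joining chain of secreted IgA and IgM, had 120089 and 113723 reads, and Mzb1, a chaperone of antibody assembly, had 1980 and 1579. The gene that was higher was Sdc1, which encodes the plasma cell surface protein syndecan-1, with 510 and 1213 reads. Over the 12 genes, 5 log2 ratios were above 0 and 7 below. Xbp1, Prdm1, Irf4 and Cd38 are also expressed by Treg cells, and their log2 ratios were 0.16, 0.72, 0.86 and 0.21. For Jchain, Mzb1, Tnfrsf17 and Derl3 they were -0.11, -0.35, -0.3 and -0.41, and for Sdc1 1.22. Of 12 B cell genes, 10 had at least 10 reads, of which 3 were lower and 1 higher, with a median log2 ratio of -0.48, and none was at 0. Among the lower ones, Ms4a1, which encodes CD20, had 47 reads in WT and 10 in Exon2KO, and Cd22 had 19 and 6, while the kinase gene Blk had 44 and 160. The summed B cell level was 147 CPM in WT and 115 in Exon2KO. The Treg and T cell list of 10 genes had a median log2 ratio of -0.21, with 6 genes below 0, although its summed level was 11000 CPM in WT and 13100 in Exon2KO. The sum was carried by Ctla4, an inhibitory receptor, at 5060 and 8270 CPM, and by Foxp3 at 445 and 1310. Past 2-fold, Foxp3 was higher (log2 ratio 1.56), and Tnfrsf18 and Cd5 were lower (-1.59 and -1.05). The labelled cell type thus had its markers, together with those of plasma cells and B cells. The part of these markers in the lower Ighv segments was not tested.

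The kappa light chain variable segments (Igkv) of the same libraries give the same measures for another V locus. There are 100 such segments with 102074 and 91591 reads, and their summed level had the log2 ratio -0.18 (-0.2 to -0.17). Among 83 with at least 10 reads, 22 were lower in Exon2KO (26.5%, against 8.14% of all genes) and 10 higher (12%, against 9.38%), with a median log2 ratio of -0.38. Their effective number was 48.7 in WT and 44.8 in Exon2KO, and their dissimilarity between libraries was 18.1% (17.7 to 18.6), near the 19.8% of Ighv. Segments with at least 100 reads in one library and at most 10 in the other numbered 3 of 72 lower and 3 of 68 higher for Igkv, and 7 of 67 and 0 of 60 for Ighv, against 0.262% and 0.238% of all genes. Whether the heavy and light chain segments differ in these counts was not tested, since each is 1 locus in 1 library pair.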

How the data were processed

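Per the labels' protocols, a Qiagen RNeasy kit gave the RNA, of which 1 µg went into NEBNext Ultra libraries. The submitters' processing notes name mm10, HISAT2 2.0.5, StringTie 1.3.3b, featureCounts 1.5.0-p3 and DESeq2 1.16.1, with no roles; the use of strand and the treatment of reads that match several places are not given in the sources used here. The authors deposited whole-number read counts per gene, which were the input to every comparison, and FPKM values, which are printed as the authors' values for level per length. Gene length was taken from the deposited table. A further 2 per-sample columns were not used.

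Library sizes were scaled with TMM factors (0.964 for WT and 1.04 for Exon2KO; edgeR 4.0.16, R 4.3.3). Ratios set Exon2KO against WT on the log2 scale, with 2 as prior count, for segments with at least 10 reads over both libraries, and 2-fold was the threshold. Ratio intervals are 95% Clopper-Pearson intervals without the prior count, and shares have 95% Wilson intervals. A ratio against 0 reads is a bound against 3 reads. Intervals of effective numbers and of the dissimilarity come from the delta method. No test was run, since 1 library in a group leaves edgeR's quasi-likelihood model without residual degrees of freedom. Ranks, shares and spread were computed with Python 3.11.15, numpy 2.4.6, pandas 2.3.3 and scipy 1.17.1, and V exons were aligned with biopython 1.88 after reading them from GENCODE M21, in which all 113 segments have the deposited coordinates. The 2-fold calls, the effective number and the inverse Simpson index were tested on simulated counts.

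The members, the marker lists and the rules were chosen with earlier results of these data known. Segments were named when they had 1 of the 10 highest mean shares, the most reads of a subgroup, 1 of the 6 highest or 6 lowest share ratios among segments with at least 100 reads in 1 library, or 0 reads in one library and at least 100 in the other. Other named segments were chosen after their values were seen. The values of 1 B cell marker are not reported here. Other scalings, read minimums, folds, prior counts and denominators were tried. RefSeq promoter sequences of these segments were not analysed here.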

Additional observations from a re-analysis of the deposited data

How the results depend on the processing

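No paired analysis was possible because a genotype has 1 library, and for the same reason no library could be left out; a promoter motif comparison was not run. Counts of segments past 2-fold were 24 to 27 lower and 8 higher with library totals, DESeq2 1.42.0 size factors, upper-quartile scaling or TMM without immunoglobulin genes. Shares of Ighv reads gave 20 lower and 13 higher, a fold of 1.5 gave 37 and 15, and a fold of 4 gave 17 and 1. Without a read minimum 31 of 96 were lower, and with a minimum of 50 reads 20 of 77. Requiring an interval that leaves out 1 gave 27 and 7. The shares of all genes at these settings were not computed, so the counts show only how the numbers of segments moved. Ighv5-17 was past 2-fold with TMM (-1.02) but not with library totals (-0.92) or Ighv shares (-0.69), as was Ighv1-76 (-1.06, -0.96 and -0.73), and Ighv9-1 (-1.01) was lost with these and with DESeq2 size factors (-0.99), while Ighv2-2 was past it only with Ighv shares (1.21), among these settings. With Ighv shares the small negative log2 ratios of Ighv3-6, Ighv1-81, Ighv1-26, Ighv1-80 and Ighv9-3 became positive, because the Ighv total was itself lower. With library totals that of Ighv9-3 was 0.08. As a share of non-immunoglobulin reads, Ighv made 0.297% in WT and 0.253% in Exon2KO, and of protein-coding reads 0.308% and 0.264%. Without Ighv3-6, the Ighv1 share was 62.3% and 64.6%, the effective number of segments 52.8 and 48.6, and the dissimilarity 21.3%. Depth limits the segments under 10 reads, and the lack of replicates limits every comparison.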
